A study of Homo sapiens with 6 samples.

Results

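The globin family of the human genome was followed in SH-SY5Y, a neuroblastoma cell line with a sympathetic-neuron type of expression programme. Its 8 members here, HBQ1, HBA1, HBA2, HBM, HBZ, HBB, NGB and CYGB, were taken by gene name from a deposited table of 60612 genes. The family was chosen by the FPKM of HBQ1 in this same contrast, where it was lower. Levels are FPKM, fragment numbers made comparable between genes of unequal length and libraries of unequal depth. The groups are 3 libraries labelled as overexpressing the long noncoding RNA CDKN2B-AS1 and 3 libraries labelled as infected with a control vector, called stuffer in the sample titles. The labels do not say how CDKN2B-AS1 was delivered, nor whether the libraries within each group are separate cultures, so errors measure the spread between these libraries. The tags LVx2 and LVx1 stand in the column names of the groups, no label explains them, and whatever they mark cannot be told apart from the labelled treatment.

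Globins are small proteins that hold a haem group and bind oxygen and other gases. The red cell chains come from 2 clusters, the alpha-type genes HBZ, HBM, HBA2, HBA1 and HBQ1 on chromosome 16 and the beta-type genes, HBB among them, on chromosome 11. Neuroglobin (NGB) is the globin of neurons, and cytoglobin (CYGB) is found in fibroblast-like cells and some neurons, where it can convert nitric oxide to nitrate. HBQ1 encodes theta globin, an alpha-type chain with no known place in haemoglobin.

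The alpha-type genes are paralogs, so how far their sequences differ bears on which values can be read gene by gene. Exon 2, which is coding throughout and encodes much of the haem pocket, is 205 bases long in all 5 genes. It is shown for HBQ1 (chr16:180666-180870), HBA1 (chr16:176929-177133) and HBZ (chr16:153892-154096), all on the plus strand, from GENCODE v29 transcripts of GRCh38. Capitals in HBA1 and HBZ mark bases that differ from HBQ1, and capitals in HBQ1 mark bases found there and in none of HBA1, HBA2, HBZ and HBM.
HBQ1: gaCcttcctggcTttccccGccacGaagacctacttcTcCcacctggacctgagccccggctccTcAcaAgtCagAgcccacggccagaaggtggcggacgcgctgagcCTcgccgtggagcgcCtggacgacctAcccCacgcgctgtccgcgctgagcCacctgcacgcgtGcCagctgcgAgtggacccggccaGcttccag
HBA1: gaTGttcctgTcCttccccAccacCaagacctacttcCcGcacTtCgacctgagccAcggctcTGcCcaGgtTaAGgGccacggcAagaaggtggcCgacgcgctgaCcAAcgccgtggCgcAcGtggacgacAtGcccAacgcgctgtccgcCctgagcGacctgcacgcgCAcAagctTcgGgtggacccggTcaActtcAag
HBZ: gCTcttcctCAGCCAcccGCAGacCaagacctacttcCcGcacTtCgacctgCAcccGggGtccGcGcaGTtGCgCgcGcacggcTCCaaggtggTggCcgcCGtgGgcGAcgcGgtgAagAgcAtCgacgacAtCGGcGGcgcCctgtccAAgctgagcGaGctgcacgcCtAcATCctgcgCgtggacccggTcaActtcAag
HBQ1 differed from HBA1 at 40 of the 205 bases and from HBZ at 64. The longest run of bases that the HBQ1 transcript shared with HBA1 or HBA2 was 16, against reads of 150 nt per the labels' protocols, and its exons overlap no other row of the table. HBA1 and HBA2 are the opposite case. Their coding sequences were identical over 426 bases, exon 2 included, and their transcripts shared a run of 480 bases, so single reads from much of either cannot be placed.

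HBQ1 and CYGB were the globin genes with clear signal, NGB was seen in some libraries, and the haemoglobin chains proper were listed at or near 0. HBQ1 (ENSG00000086506, chromosome 16, 180459 to 181179, plus strand) stood at 4.06, 4.35 and 4.25 FPKM in overexpression replicates 1, 2 and 3, against 7.39, 9.98 and 12.2 FPKM in control vector replicates 1, 2 and 3. The overexpression libraries were close together and all lay below all 3 control vector libraries, which were spread widely. These values rest on 59, 47 and 110 fragments in the overexpression libraries and on 176, 153 and 280 in the control vector libraries, all of them whole numbers.

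Mean HBQ1 was 4.22 ± 0.147 FPKM in overexpression and 9.86 ± 2.41 FPKM in control vector libraries (SD, n = 3 each), a ratio of 0.428. On the log2(FPKM + 0.5) scale, which understates the change of low genes, the difference was -1.11 with an SE of 0.19. Because the gene was chosen with this difference known, the figures describe it and no p is given for it. The spread over the overexpression libraries, a coefficient of variation of 3.49%, was below the counting error of each of them, 9.53% to 14.6%. In the control vector group it was 24.5%, above the counting errors of 5.98% to 8.08%, so the distance between the groups depended on which control vector library was used. Without control vector replicate 1 the log2 difference was -1.29, and without control vector replicate 3 it was -0.95. HBQ1 ranked above 41.0% to 42.5% of the tested genes in the overexpression libraries and above 58.4% to 68.8% in the control vector libraries.

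CYGB (ENSG00000161544, chromosome 17, 76527356 to 76551175, minus strand) did not separate the groups. It stood at 5.07, 6.11 and 3.79 FPKM in overexpression replicates 1, 2 and 3, against 3.39, 4.37 and 4.31 FPKM in control vector replicates 1, 2 and 3. Overexpression replicates 1 and 2 were above all control vector libraries and replicate 3 lay among them. The means were 4.99 ± 1.16 FPKM in overexpression and 4.02 ± 0.547 FPKM in control vector libraries (SD, n = 3 each), and the log2 difference was 0.27 with an SE of 0.21. The counting error was only 4.41% to 5.39% in each library of both groups, so within-group scatter exceeded it.

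In order of level, HBQ1 stood above CYGB in every control vector library. In the overexpression group the pair did not differ beyond their spread: HBQ1 was lower than CYGB in replicates 1 and 2 and higher in replicate 3. The ratio of HBQ1 to CYGB within a library, which no scaling between libraries can alter, was 0.800, 0.712 and 1.12 in overexpression replicates 1, 2 and 3, against 2.18, 2.28 and 2.83 in control vector replicates 1, 2 and 3. Summed over all 17 globin genes and pseudogenes looked at, the level was 8.74 to 10.9 FPKM in overexpression and 11.0 to 16.5 FPKM in control vector libraries. HBQ1 made up 39.7% to 48.6% of that sum in overexpression and 67.0% to 73.9% in control vector libraries.

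**Figure D1:**
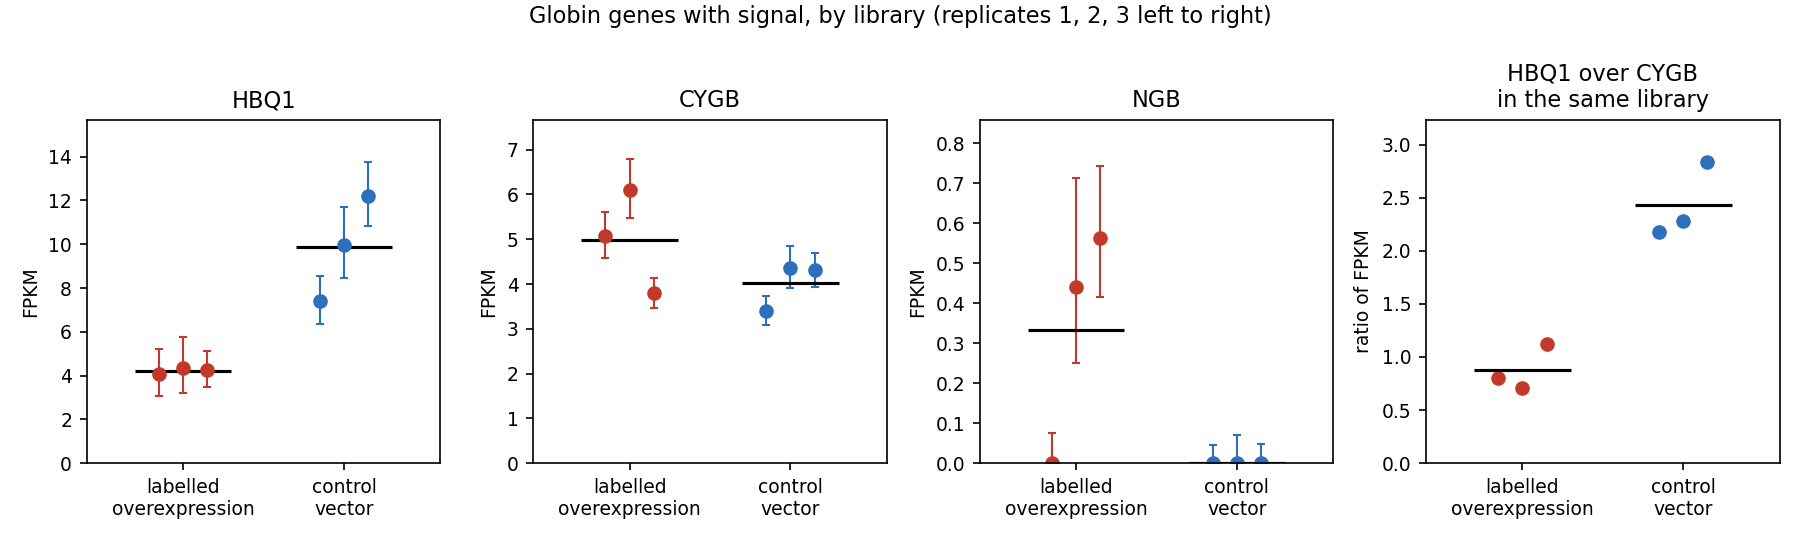
FPKM of HBQ1, CYGB and NGB in each library (points, replicates 1 to 3 from left to right), with 95% Poisson intervals that cover counting error only and a line at the mean of each group, and the ratio of HBQ1 to CYGB within each library. HBQ1 lay between 4.06 and 4.35 FPKM in the overexpression libraries and between 7.39 and 12.2 FPKM in the control vector libraries, CYGB overlapped, and NGB was above 0 in 2 overexpression libraries.

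NGB (ENSG00000165553, chromosome 14, 77265483 to 77271206, minus strand), next in order, was not seen in every library of either group. It stood at 0.440 FPKM in overexpression replicate 2 and 0.562 FPKM in replicate 3, and was listed at 0 in overexpression replicate 1 and in all 3 control vector libraries. The fragments behind it were 16 and 49 in overexpression replicates 2 and 3. A count of 0 allows, at 3 fragments, up to 0.0613 FPKM in overexpression replicate 1 and up to 0.0374, 0.0581 and 0.0389 FPKM in control vector replicates 1, 2 and 3. That limit covers counting error only, not other spread between libraries. NGB lay above it in 2 of 3 overexpression libraries, the groups overlap at 0, and no fold is given. Across all rows, 82 genes were listed at 0 in all control vector libraries and reached 0.4 FPKM in at least 2 overexpression libraries. Of these 6 were protein-coding, and 20 genes, 0 of them protein-coding, showed the reverse. This pattern was drawn from the values of NGB, which is thus among the 82 and the 6, so nothing is read from these counts. The microRNA gene MIR1260A lies within an exon of NGB on the other strand, covering 4.11% of its exon bases, and was listed above 0 in overexpression replicate 3 only, with 10 fragments.

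Of the neighbours of NGB that were high enough to test, POMT2, an O-mannosyltransferase gene that ends 3750 bases away, averaged 4.21 ± 0.559 FPKM in overexpression and 3.20 ± 0.296 FPKM in control vector libraries (SD, n = 3 each). All its overexpression libraries lay above its control vector libraries, as did those of 14.2% of the tested genes, and its limma-trend adjusted p (Benjamini-Hochberg) was 0.367. GSTZ1, an enzyme of tyrosine breakdown, and RP11-463C8.4 overlapped between the groups, with log2 fold changes of -0.23 and 0.46.

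The haemoglobin chains among the members were listed with no more than a few fragments. HBA1 (ENSG00000206172), HBA2 (ENSG00000188536), which both encode the alpha chain, and HBB (ENSG00000244734), the adult beta chain, were listed at 0 in all 6 libraries. For HBB a count of 0 allows, by counting error alone, up to 0.0470 to 0.112 FPKM in the overexpression libraries. In the control vector libraries it allows up to 0.0510 to 0.0792 FPKM. For HBA1 and HBA2 the listed 0 does not carry such a limit, since the sources used here do not say how fragments matching both copies were treated. HBZ (ENSG00000130656), the embryonic zeta chain, and HBM (ENSG00000206177), mu globin, were above 0 in overexpression replicate 1 alone, at 0.0401 and 0.0574 FPKM, from 1.28 and 1.44 fragments. Those fractions cannot be told apart between the 2 genes, because the table gives them a shared exon of 205 bases. HBM shares 205 further bases with the pseudogene HBZP1, which had 0.0237 FPKM in the same library.

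Other globin genes reached at most 0.236 FPKM in any library. HBD, HBG1 and the pseudogenes HBBP1 and HBAP1 were listed at 0 in every library, and androglobin (ADGB) and HBG2 stayed below 0.05 FPKM. The embryonic epsilon gene HBE1 had 10.25 fragments, 0.236 FPKM, in control vector replicate 1 and 0 elsewhere, and 90.0% of its exon bases are shared with other rows of the table. Myoglobin (MB), the oxygen store of muscle, had 0.204, 0.0457 and 0.134 FPKM in overexpression replicates 1, 2 and 3, against 0, 0.129 and 0 FPKM in control vector replicates 1, 2 and 3. The groups overlapped.

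HBQ1 thus had signal in a cluster whose other genes were listed at or near 0, a value without a limit for HBA1 and HBA2. The flanking genes are widely expressed. NPRL3, a subunit of the GATOR1 complex whose introns hold the enhancers of the alpha cluster in red cells, lies upstream of the cluster. It averaged 6.60 ± 0.637 FPKM in overexpression and 7.61 ± 0.629 FPKM in control vector libraries (SD, n = 3 each), and overlapped. LUC7L, a splicing factor gene on the minus strand that ends 7790 bases downstream of HBQ1, stood at 10.02, 10.4 and 9.89 FPKM in overexpression replicates 1, 2 and 3, against 5.86, 9.21 and 9.17 FPKM in control vector replicates 1, 2 and 3. LUC7L was thus higher, not lower, in every overexpression library, as were 14.2% of all tested genes. Its limma-trend adjusted p (Benjamini-Hochberg) was 0.386, past no threshold. The ratio of HBQ1 to LUC7L was 0.405 to 0.430 in overexpression and 1.08 to 1.33 in control vector libraries.

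Between HBQ1 and LUC7L, 4569 bases beyond HBQ1, lies the noncoding LA16c-OS12.2 on the minus strand, picked out after its values were seen. It had 0.199, 0.268 and 0.187 FPKM in overexpression replicates 1, 2 and 3, against 0.527, 0.503 and 0.632 FPKM in control vector replicates 1, 2 and 3. All overexpression libraries lay below all control vector libraries, as HBQ1 did, but on 3 to 5 fragments per overexpression library and 8 to 15 per control vector library. Of the 11 listed neighbours on 16p13.3, 6 were tested and 0 passed in either direction, with a median log2 fold change of -0.11 against 0.05 over all tested genes. SNRNP25, a component of the minor spliceosome, averaged 49.9 ± 1.24 FPKM in overexpression and 62.5 ± 7.23 FPKM in control vector libraries (SD, n = 3 each). SNRNP25 was lower in every overexpression library, as were 9.9% of all tested genes. It was the 1 neighbour of 6 with an unadjusted limma-trend p under 0.05, a share near the 17.7% of all tested genes that had one. MPG, a DNA glycosylase, FAM234A and POLR3K had log2 fold changes of -0.25, 0.15 and -0.02.

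**Figure D2:**
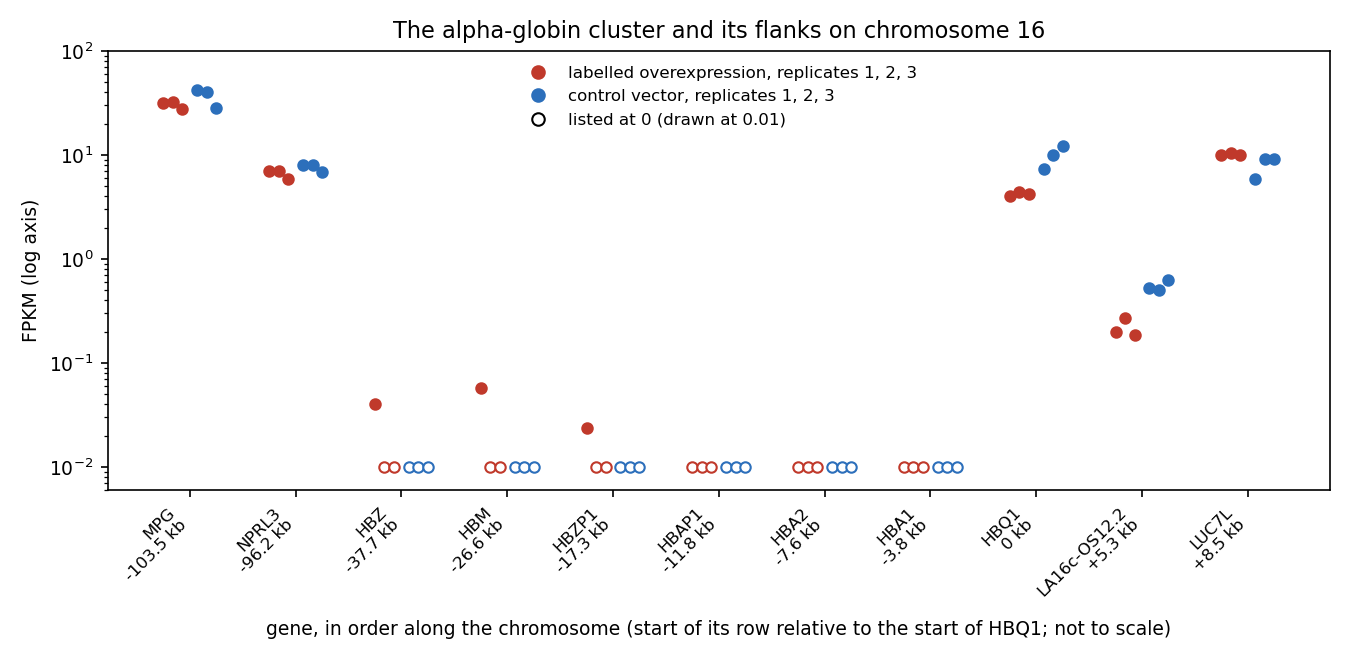
FPKM on a log axis of genes of the alpha-globin cluster and its flanks in each library, ordered along the chromosome, with open points for libraries in which a gene was listed at 0. HBQ1 stood at 4.06 to 12.2 FPKM, whereas HBA1 and HBA2 were at 0 in all 6 libraries and HBZ and HBM in 5.

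Around CYGB the gene that differed was PRCD, which overlaps it on the other strand and encodes a small photoreceptor disc protein. PRCD stood at 10.3, 9.68 and 9.12 FPKM in overexpression replicates 1, 2 and 3, against 14.8, 16.8 and 15.5 FPKM in control vector replicates 1, 2 and 3, so the groups did not overlap. Its log2 fold change was -0.67 with an SE of 0.13, and it fell past the threshold (limma-trend, Benjamini-Hochberg adjusted p = 0.0451). That call held in 3 of 15 alternatives, with adjusted p from 0.0396 to 0.171, and in 0 of the 6 that leave out a library. PRCD and CYGB share 248 exon bases, 9.01% of those of CYGB, and the sources used here do not say whether strand was used in the counting, so fragments there may have been given to either gene. The noncoding RP11-666A8.8 shares another 302, and the fragment numbers of CYGB hold fractions in 5 of the 6 libraries. The ratio of CYGB to PRCD was 0.416 to 0.631 in overexpression and 0.229 to 0.278 in control vector libraries. RHBDF2, SNHG16 and RP11-666A8.13, the other neighbours within 50 kb that were tested, had log2 fold changes of 0.13, -0.03 and 0.02.

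**Figure D3:**
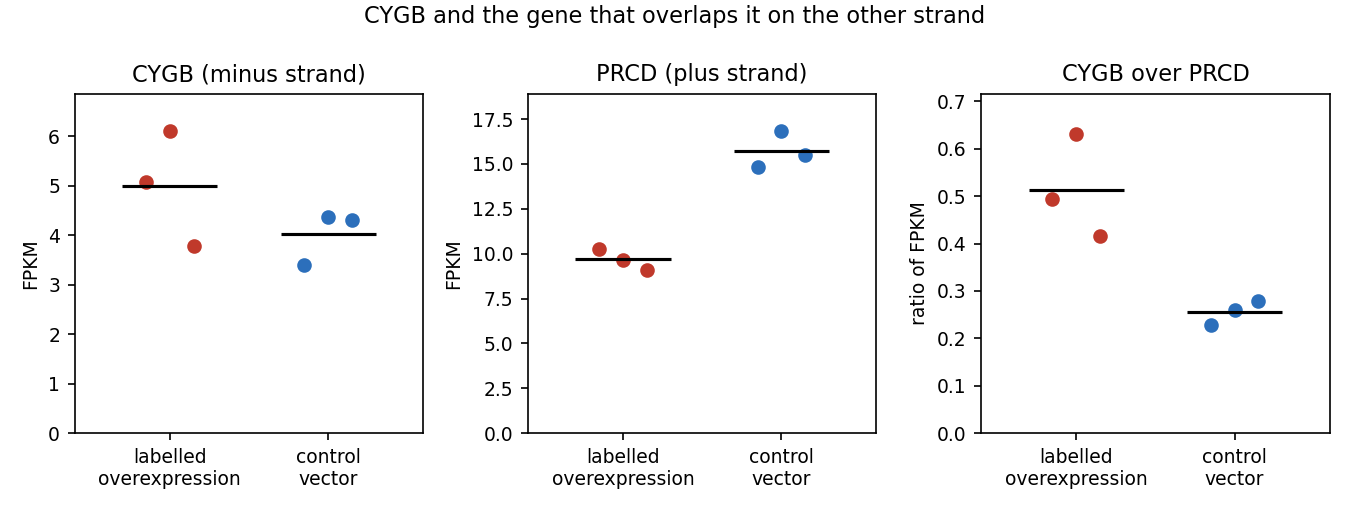
FPKM of CYGB and of PRCD, which overlaps it on the other strand, and their ratio, in each library (points, replicates 1 to 3 from left to right) with a line at the mean of each group. CYGB overlapped between the groups, while PRCD was 9.12 to 10.3 FPKM in the overexpression and 14.8 to 16.8 FPKM in the control vector libraries.

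The comparison across all genes sets the scale for these differences. Of 13984 genes with at least 1 FPKM in at least 3 libraries, 159 passed a Benjamini-Hochberg adjusted p of 0.05 in limma-trend, or 1.14%. Of all tested genes 0.529% were called higher (74 genes) and 0.608% lower (85 genes). Of the 8 globin genes 2 were high enough to be tested, and HBQ1 was the 1 among the calls. The groups did not overlap for 1 of these 2 members, HBQ1, against 24.1% of the tested genes in either direction and 9.9% with the overexpression libraries lower. Since HBQ1 led to the choice of the family, nothing is read from these counts. HBQ1 was among the calls in 6 of 15 alternatives and in 0 of the 6 that leave out a library. A fold change as low as that of HBQ1 was found in 38 tested genes, itself included. HBQ1 is a short gene of 528 bases, and 911 tested genes within 1.25-fold of that length had a median of -0.04 on the log2 scale. Among them 3 were as low as HBQ1. The targeted CDKN2B-AS1 averaged 0.332 ± 0.0252 FPKM in overexpression and 0.250 ± 0.0522 FPKM in control vector libraries (SD, n = 3 each). Its overexpression libraries, at 0.304 to 0.353 FPKM, all lay above its control vector libraries, at 0.191 to 0.288 FPKM. So did those of 14.2% of all tested genes, and the ratio of its means was only 1.33. The gene was below the filter and not tested. These values do not establish overexpression, so the groups are named by their labels throughout.

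Beside the theta globin signal, red cell markers were nearly all at 0. Of 12 erythroid markers 10 were listed at 0 in all libraries, among them AHSP, the chaperone of free alpha chains, and GATA1, and ALAS2, the erythroid enzyme of haem synthesis, stayed below 0.05 FPKM. The exception was KLF1, an erythroid transcription factor that activates HBB, which had 0.327, 0.212 and 0.639 FPKM in overexpression replicates 1, 2 and 3, against 0, 0 and 0.0286 FPKM in control vector replicates 1, 2 and 3. Every overexpression library of KLF1 was above every control vector library, on 14.5, 7 and 50.5 fragments against 0, 0 and 2, too low to be tested and named after its values were seen. Summed over the erythroid list, which KLF1 dominates, the level was 0.212 to 0.649 FPKM in overexpression and 0 to 0.0342 FPKM in control vector libraries. Of 9 immune and blood markers 6 were at 0 in all libraries, PTPRC (CD45) included, and the sums overlapped, at 0.916 to 1.89 FPKM in overexpression and 0.547 to 1.93 FPKM in control vector libraries. Fibroblast markers, relevant to CYGB, summed to 45.3 to 51.2 FPKM and 41.3 to 53.9 FPKM in the same order of groups. In a bulk sample fewer cells with a transcript and less transcript per cell cannot be told apart.

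The label of the line was checked against 10 noradrenergic neuroblastoma markers, of which 9 were high enough to test and 0 passed. Their summed level was 993 to 1083 FPKM in overexpression and 878 to 1051 FPKM in control vector libraries. DBH, dopamine beta-hydroxylase, averaged 613 ± 16.2 FPKM in overexpression and 588 ± 92.3 FPKM in control vector libraries (SD, n = 3 each). GATA3, a zinc finger factor of sympathetic neurons, averaged 101.5 ± 7.96 FPKM in overexpression and 76.7 ± 5.58 FPKM in control vector libraries (SD, n = 3 each). It was the 1 marker whose groups did not overlap and the 1 with an unadjusted limma-trend p under 0.05 (Benjamini-Hochberg adjusted p = 0.101). Over all tested genes the shares were 24.1% and 17.7%, so nothing is read from these counts. TH, tyrosine hydroxylase, was the marker under the filter. It had 0.0257 FPKM in overexpression replicate 3 and 0.300 FPKM in control vector replicate 1, from 4 and 43 fragments. In every other library it was listed at 0, and the groups overlapped.

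Regulators of globin genes in red cells were partly present. Of 18 listed, 8 were tested and 0 passed in either direction, with a median log2 fold change of 0.19 against 0.05 over all tested genes. GATA2, a zinc finger factor of blood progenitors that sympathetic neurons also use, was the most abundant, at 108 ± 12.3 FPKM in overexpression and 89.5 ± 1.62 FPKM in control vector libraries (SD, n = 3 each). CHD4, the remodeller of the NuRD complex that represses fetal globin genes, averaged 7.85 ± 0.150 FPKM in overexpression and 5.85 ± 0.247 FPKM in control vector libraries (SD, n = 3 each). Neither passed (limma-trend, Benjamini-Hochberg adjusted p = 0.230 and 0.203). Both lay higher in all overexpression libraries, as did 14.2% of all tested genes. TFCP2, which binds the alpha-globin promoter, NR2C1 and ATRX, whose loss lowers alpha-globin expression, had log2 fold changes of 0.20, 0.24 and 0.19. At an unadjusted limma-trend p under 0.05 there were 2 of 8 members, CHD4 and GATA2, against 17.7% of all tested genes. The fetal globin repressor BCL11A, under the filter and named after its values were seen, averaged 0.299 ± 0.1004 FPKM in overexpression and 0.539 ± 0.138 FPKM in control vector libraries (SD, n = 3 each).

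Genes that make haem, the group every globin carries, were expressed without a member past the threshold. Of 14 listed 12 were tested, 0 passed, and the median log2 fold change was -0.09, with 3 above 0 and 9 below. TMEM14C, a mitochondrial protein needed for protoporphyrin import, averaged 126 ± 4.64 FPKM in overexpression and 155 ± 4.76 FPKM in control vector libraries (SD, n = 3 each). It was lower in every overexpression library (limma-trend, Benjamini-Hochberg adjusted p = 0.137), as were 9.9% of all tested genes. FECH, ferrochelatase, which inserts the iron, averaged 3.93 ± 0.469 FPKM in overexpression and 4.99 ± 0.0437 FPKM in control vector libraries (SD, n = 3 each). FECH too was lower in every overexpression library. ALAS1, the rate-limiting enzyme outside red cells, averaged 24.1 ± 3.53 FPKM in overexpression and 27.1 ± 4.28 FPKM in control vector libraries (SD, n = 3 each), and overlapped. ALAD, the next enzyme of the pathway, had a log2 fold change of 0.30. TMEM14C was the 1 of 12 with an unadjusted limma-trend p under 0.05, against 17.7% of all tested genes.

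Haem breakdown and handling genes had a median of 0.19 over 9 tested of 10 listed, and 0 passed. HMOX1, the inducible haem oxygenase, averaged 2.46 ± 0.498 FPKM in overexpression and 1.82 ± 0.501 FPKM in control vector libraries (SD, n = 3 each). BLVRA, biliverdin reductase, the haem chaperone PGRMC1, the haem transporter SLC48A1 and the haem-binding HEBP1 had log2 fold changes of 0.19, -0.26, 0.30 and 0.31. The oxygen sensing list, which includes HIF1A and the prolyl hydroxylases that mark it for destruction, had 8 tested members, 0 passed and a median of 0.08. EGLN1, the main prolyl hydroxylase, averaged 2.32 ± 0.274 FPKM in overexpression and 1.29 ± 0.781 FPKM in control vector libraries (SD, n = 3 each). EGLN1 was higher in every overexpression library, as were 14.2% of all tested genes. VHL, ARNT, HIF1A and EPAS1 had log2 fold changes of 0.33, 0.10, 0.07 and 0.09. Neither of these lists had a member with an unadjusted limma-trend p under 0.05, against 17.7% of all tested genes.

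Partner proteins of the globins had a median of -0.01 over 6 tested of 7 listed, and 0 passed. CYB5R3 and cytochrome b5 (CYB5A) form the system that keeps cytoglobin reduced. CYB5R3 averaged 22.7 ± 1.02 FPKM in overexpression and 19.0 ± 3.80 FPKM in control vector libraries, and CYB5A averaged 8.70 ± 0.764 FPKM in overexpression and 11.2 ± 1.21 FPKM in control vector libraries (SD, n = 3 each). CYB5B, CYCS, which encodes the cytochrome c that neuroglobin can bind, CST3 and FLOT1 had log2 fold changes of -0.11, 0.03, -0.05 and 0.03. CYB5A was the 1 of 6 with an unadjusted limma-trend p under 0.05, again near the 17.7% of all tested genes. The groups did not overlap for 1 member that was higher in overexpression, CYB5R3, and 2 that were lower, CYB5A and CYB5B. Over all tested genes those shares were 14.2% and 9.9%. By limma-voom on recovered fragments, 0 members of any of the 6 lists passed.

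**Figure D4:**
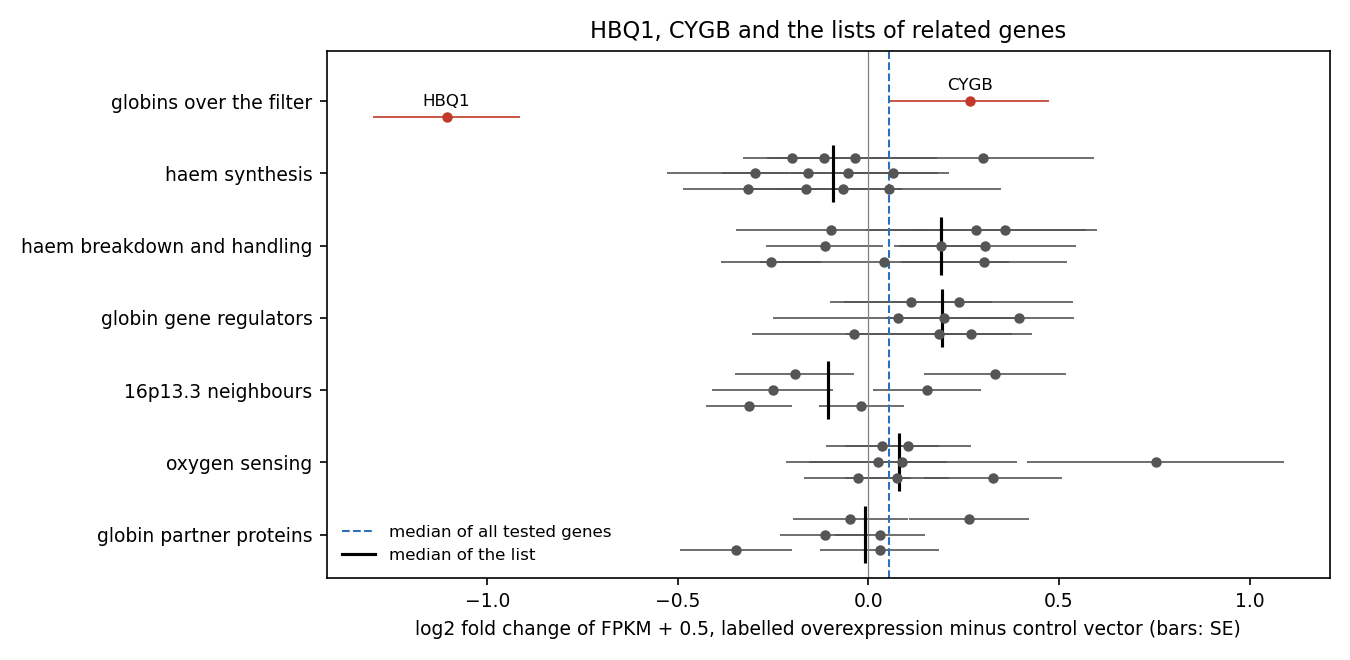
Log2 fold change of FPKM + 0.5, overexpression minus control vector, with its SE, for HBQ1, CYGB and the tested members of 6 lists, with each list's median and a dashed line at the median of all tested genes. HBQ1, which was chosen with this difference known, lay at -1.11, below every tested member of the 6 lists. Their range was -0.35 to 0.75, and CYGB at 0.27 lay within it.

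The genes whose levels ran most like HBQ1 were ranked by Pearson's r of log2(FPKM + 0.5) over the 6 libraries, among 7404 tested genes with a mean of at least 5 FPKM. The first 5 were GTF2H1, a subunit of the transcription factor TFIIH, at 0.996, the Sm-like protein gene LSM5 at 0.991, pyruvate carboxylase (PC) at 0.989, the BBSome subunit BBS4 at 0.985 and the nuclear receptor ESRRA at 0.985. With each group's mean removed r was 0.963, 0.947, 0.926, 0.943 and 0.865. All of them lay lower in all overexpression libraries, against 9.9% of all tested genes. That follows from ranking by likeness to HBQ1, which separates the groups. None of them passed the test, and r was at least 0.95 in 53 genes. For CYGB the first 5 were the microRNA gene MIR762 at 0.990, XPO6 at 0.989, KRT10 at 0.982, PTMS at 0.979 and WFS1 at 0.979, and r was at least 0.95 in 25 of 7405 genes. With 6 libraries in 2 groups, such values describe these libraries alone. All genes of a library share its group, depth and handling.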

How the data were processed

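RNA of 6 SH-SY5Y samples was purified on RNeasy Micro columns, amplified by SMART-seq HT chemistry and read from both ends, per the labels' protocols. featureCounts 2.0.1, STAR 2.7.9 and the builds hg38 and GRCh38.p13 are named in the submitters' processing notes. Options and use of strand are not given in the sources used here. The deposited values are FPKM per gene and library, made by the authors per the file headers, beside a gene length in bases. Multiplied by length in kilobases, the values summed to 1000000 in every library. Values up to 1000 fragments were multiples of 0.01 of a common step (tolerance 0.001 fragments). That step gave depths of 27525077, 20466583 and 48996425 fragments in overexpression replicates 1, 2 and 3, and 45102020, 29048596 and 43413832 in control vector replicates 1, 2 and 3. Only 44.2% to 49.0% of values were whole fragments, so no count model was the main test.

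Genes with at least 1 FPKM in at least 3 libraries were fitted on log2(FPKM + 0.5) by limma-trend (limma 3.58.1, R 4.3.3) with 2 groups and no covariate, and Benjamini-Hochberg adjustment at 0.05 over 13984 genes. The fit was tested on simulated data. Fold changes are overexpression minus control vector. Poisson intervals (95%) and the limit of 3 fragments cover counting error only. Named are the members, other globin genes, tested genes within 50 kb, up to 5 members of smallest p per pathway list (a few genes are not reported here), and the 5 genes most like HBQ1 or CYGB. The members and lists were chosen with earlier results of these data known. Alternatives were other pseudocounts, filters and scalings, limma without the trend, limma-voom on recovered fragments, a replicate block, and leaving out each library. Protein sequences were not used here.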

Additional observations from a re-analysis of the deposited data

How the results depend on the processing

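The log2 fold change of HBQ1 stayed between -1.29 and -0.95 and that of CYGB between 0.12 and 0.43 in all 15 alternatives, and each moved by less than its spread within groups. The 6 tested lists had 0 members past the threshold in each of the 15. The number of genes past the threshold was less stable. HBQ1 was not among the calls with no filter, without the trend, by limma-voom (127 genes) or without any 1 library, also where 124 genes passed. Against 159, it was 0 with no filter on low values and 0 without the mean-variance trend, where 3538 and 2304 genes had an unadjusted limma p under 0.05, and 0 to 124 when a library was left out. Leaving out any overexpression library, or control vector replicate 2, gave 0, where 1665 to 2304 genes had an unadjusted p under 0.05. Leaving out control vector replicate 1 gave 3, and replicate 3 of that group 124. The cause was not tested, beyond fewer libraries. With FPKM rescaled to a common total per library, 181 genes were higher and 52 lower, against 74 and 85, the median over all tested genes was 0.15 in place of 0.05, and CYGB had 0.37. Median-of-ratios factors gave 59 higher and 119 lower, and limma-voom on the recovered fragments 79 higher and 48 lower. The titles number the replicates of both groups, but are not said to pair them. Same-numbered libraries correlated in their deviations from the group means at -0.02, 0.11 and 0.12, not all over 0.1. Libraries of unlike number correlated at -0.18 to 0.10. Such values do not settle pairing, and the numbers were not taken as pairs. With the replicate block 229 genes passed, and the estimates of HBQ1 and CYGB, -1.11 and 0.27, did not change. Depth limits HBZ, HBM, HBE1, MB, NGB and KLF1, which rest on few fragments.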
